A study of Saccharomyces cerevisiae with 24 samples.

Results

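Expression was measured in wild type budding yeast (Saccharomyces cerevisiae) after mild pretreatment with hydrogen peroxide alone, on the 4 arrays whose titles name wild type cells at 0.1 mM H2O2, out of 24 arrays in the study. The strain was BY4741, a laboratory haploid of mating type a that lacks HIS3, LEU2, MET17 and URA3, grown in rich medium (YPD). Pretreated cells received 0.1 mM H2O2 for 45 min per the labels, whereas the methods describe the acute protocol at the lower dose, which implies 1 h. Which holds for these arrays is not settled by the sources. For each replicate a culture grown from a single colony was split, 1 portion received peroxide and the other received phosphate buffer as a sham treatment, and the RNA of both was hybridised to the same 2-colour Agilent array. The adapted wild type group (0.1 mM for 45 min, then 0.4 mM for 1 h) and the acute wild type group (0.4 mM for 1 h) serve as comparisons. They have 4 arrays each, and every array carries the untreated RNA of its own culture. The 3 groups of pretreated deletion strains (mga2, rox1 and yap1) enter only through the spread between arrays. The comparison addressed here is which transcripts had changed by the end of the mild dose, before any high dose was given, which the study calls the early adaptive response. Of 6251 open reading frames (ORFs) in the table, 6232 had values on the 4 pretreated arrays, and all of these were tested.

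At low concentrations hydrogen peroxide acts on yeast both as an oxidant and as a signal. The transcription factor Yap1 is oxidised by way of a peroxidase, collects in the nucleus and switches on peroxiredoxins, thioredoxins, glutathione synthesis and other antioxidant genes. Peroxiredoxins reduce peroxide with electrons from thioredoxin, superoxide dismutases turn superoxide into peroxide and oxygen, and Msn2 and Msn4 drive a general stress program shared by many insults. DNA damage acts through a checkpoint kinase cascade that raises ribonucleotide reductase, the enzyme that makes DNA precursors. A different set of genes responds to low oxygen: Mga2 activates the fatty acid desaturase gene OLE1, and Rox1 represses hypoxic genes while heme is plentiful.

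All values below are log2 ratios of treated to untreated intensity on an array. They come from intensities that the authors had background-corrected and quantile-normalised. Each of the 4 arrays had the same distribution of ratios, from -1.88 to 2.73 with a standard deviation (SD) of 0.379 over ORFs. A gene that leads on several arrays therefore has equal values there, which understates its spread. The treated RNA was in Cy3 on replicates 1 and 2 and in Cy5 on replicates 3 and 4. Genes that mark the strain were checked. STE2, the a-cell pheromone receptor, had intensities of 2386 to 7587, whereas URA3, which the strain lacks, had 48 to 83 on replicates 3 and 4 and 210 to 321 on replicates 1 and 2. LEU2 (36 to 47 and 115 to 260) and HIS3 (31 to 42 and 101 to 119) behaved alike, so dim signal was higher on replicates 1 and 2, where the array pair and the dye orientation cannot be told apart. Intensities of MET17, and of a-cell genes other than STE2, are not reported here. The untreated channel stands for the sham culture throughout.

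The 4 arrays differed most by dye orientation, which cannot be told apart from the array pair (replicates 1 and 2 against 3 and 4). Over ORFs, replicates 1 and 2 correlated at 0.899 and replicates 3 and 4 at 0.971, but arrays of opposite orientation correlated at -0.642 to -0.750. Splitting each ORF into a treatment component (the mean of the 4 ratios) and a dye component (the distance of each orientation from that mean) gave an SD over ORFs of 0.139 for treatment and 0.345 for dye. The dye component recurred in other cultures, with a correlation over ORFs of 0.878 with that of the adapted and 0.843 with that of the acute wild type arrays. In those groups the treated RNA was in Cy5 on replicates 1 and 2 and in Cy3 on replicates 3 and 4. ORFs are not independent replicates, and these coefficients are descriptions. Because each group holds both orientations equally, a dye effect cancels in a gene's mean. The dye component was given its own term per gene and group in the fit. It also takes up any difference in response between the 2 array pairs, which the fit then does not count as spread.

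**Figure D1:**
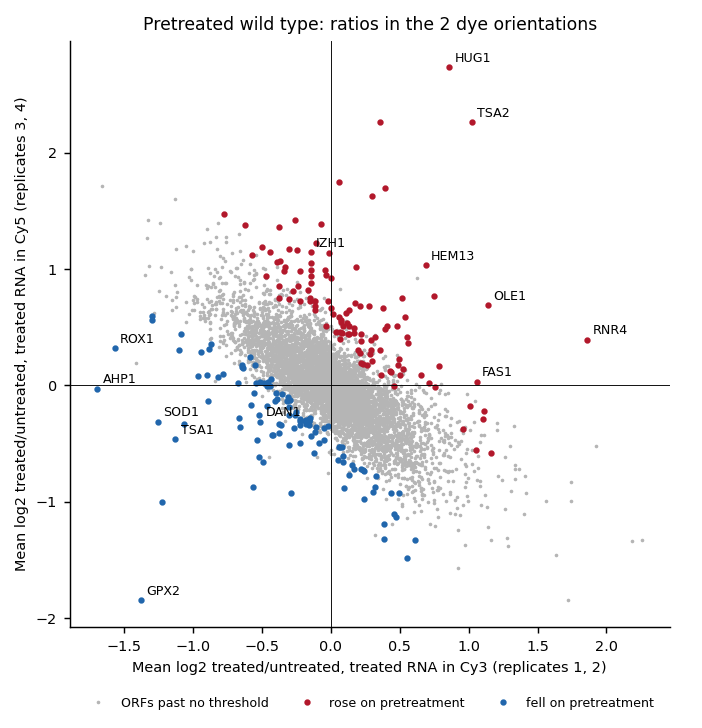
Each point is 1 ORF in pretreated wild type cells, with its mean log2 treated/untreated ratio where the treated RNA was Cy3 (x axis) against where it was Cy5 (y axis). The grey cloud runs from upper left to lower right, which is the dye component, and the genes that rose (red) and fell (blue) lie off that diagonal, with HUG1 and TSA2 at the upper right and GPX2 at the lower left.

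Pretreatment changed 219 of 6232 ORFs, 3.51% of those tested, at a Benjamini-Hochberg adjusted p under 0.05 in limma's moderated test with a dye term. Of these, 112 rose (1.80%) and 107 fell (1.72%). Counts of called list members below are to be read against these shares. Changes were small: 7 exceeded 1 on the log2 scale, 33 exceeded 0.5, and the median size was 0.33. The median over all 6232 ORFs was -0.01, and the middle 90% of them lay between -0.19 and 0.22. As deposited, 110 of the called ORFs had the same sign on 4 of 4 arrays (56 above and 54 below 0), whereas 5.74% of all ORFs were above 0 and 6.50% below 0 on 4 of 4 arrays. The dye effect of each gene was also estimated from the 8 adapted and acute wild type arrays and taken off the pretreated ratios, a step chosen after the data were seen that leaves the means as they were. After it, 177 of the 219 called ORFs (80.8%) had 1 sign on 4 of 4 arrays, against 27.0% of the 6202 ORFs with such an estimate. ORFs were called on the mean of the same arrays, so a higher share among them follows from that choice and is a description. The step did not bring the arrays into line: over ORFs replicates 1 and 2 still correlated at 0.752 and replicates 3 and 4 at 0.904, but arrays of opposite orientation at -0.258 to -0.019.

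The number of calls depended on how the spread was estimated. With 1 dye term shared by all 6 groups 44 ORFs were called (0.706%), all of them among the 219, and with the 4 arrays fitted alone 1682 were called (27%), which included all 219. Leaving out replicate 1, 2, 3 or 4 gave 44, 105, 56 and 42 calls, and 33 of the 219 ORFs (21 that rose and 12 that fell) were called whichever array was left out. The table of spots, the second deposited source, gave 161 (105 higher and 56 lower, against 112 and 107). Statements on single genes below therefore name those that were called without any 1 of the arrays.

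**Figure D2:**
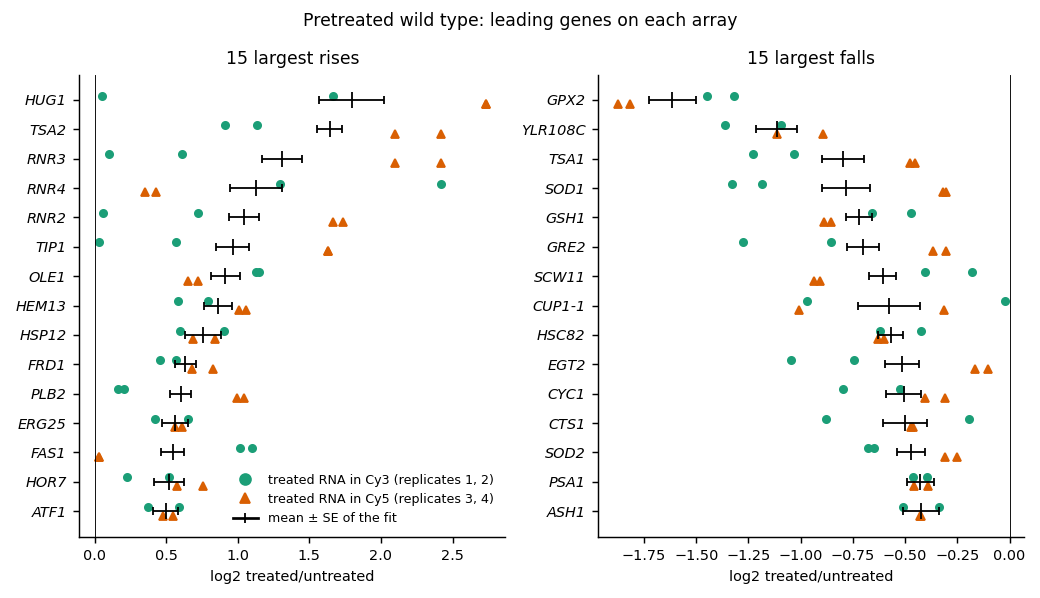
Log2 treated/untreated ratios on each array for the 15 largest rises (left) and the 15 largest falls (right) among called genes of 1 sign on 4 of 4 arrays, with circles for treated RNA in Cy3, triangles for Cy5, and a bar with its whiskers for the mean ± standard error (SE) of the fit. HUG1 at 1.79 and GPX2 at -1.61 lead, and most rises to the right of 1 had their lowest value on a Cy3 array.

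Genes of the DNA damage response made up 4 of the 5 largest rises. HUG1, a small damage-induced protein that inhibits ribonucleotide reductase, had treated intensities of 1626, 266, 3931 and 4012 on replicates 1 to 4, against 513, 257, 591 and 603 in untreated cells. Its log2 ratios were 1.66, 0.05, 2.73 and 2.73 (n = 4), with an SD of 1.27. The mean was 1.79 ± 0.22, a 3.47-fold rise (limma adjusted p = 0.000113). Here and below ± gives the SE of the fit, which does not count the distance between the 2 array pairs as spread. For HUG1 the fitted dye component was 0.94, against 0.08 from the adapted and acute wild type arrays. Replicate 2 stood apart from the other 3 arrays, with almost no difference between pretreated and untreated cells. Both of its HUG1 intensities, 266 and 257, lay within the 210 to 321 that URA3, which the strain lacks, gave on replicates 1 and 2. RNR3, the damage-inducible large subunit of ribonucleotide reductase, had ratios of 0.61, 0.10, 2.42 and 2.10 (mean 1.31 ± 0.14, limma adjusted p = 1.95e-05). RNR2, a small subunit, had 0.73, 0.06, 1.66 and 1.73 (mean 1.04 ± 0.10, limma adjusted p = 8.91e-06). RNR4, the other small subunit, had 2.42, 1.30, 0.35 and 0.43 (mean 1.13 ± 0.18, limma adjusted p = 0.00144). For RNR4 the arrays with treated RNA in Cy3 were the high ones, the reverse of the other 3 genes. The fitted dye component was 0.95 for RNR3, 0.65 for RNR2 and -0.73 for RNR4. The 8 other wild type arrays gave 0.22, 0.14 and -1.01 for these genes. Once the dye effect of the 8 other arrays was taken off, RNR4 stood at 1.41, 0.29, 1.36 and 1.44, and replicate 2 was the lowest array for each of HUG1, RNR2, RNR3 and RNR4. RNR1, the main large subunit, passed no threshold, at 0.02, -0.23, 0.27 and 0.30.

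Of the 20 ribonucleotide reductase and DNA damage genes on the list, 5 rose, HUG1, RNR2, RNR3 and RNR4 among them, none fell and 15 passed no threshold, with a list median of 0.09. Replicate 2 was below replicate 1 for 17 of the 20, against 49.5% of all ORFs and 66.1% of those that rose. A low replicate 2 was not particular to this list. The count was 55 of 67 for the mitochondrial ribosome, where 0 genes were called, and 0 of 12 for daughter cell separation. HUG1, RNR2 and RNR3 were called whichever array was left out. RNR4 lost its call without replicate 1 (0.84 there, limma adjusted p = 0.0589). Of the 5 calls 3, 5, 4 and 4 were made without replicates 1, 2, 3 and 4.

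The peroxiredoxins moved in opposite directions. TSA2, a cytosolic peroxiredoxin that is scarce in unstressed cells, had treated intensities of 558, 630, 1397 and 1709, against 296, 287, 326 and 319 in untreated cells. Its ratios of 0.91, 1.13, 2.10 and 2.42 gave a mean of 1.64 ± 0.09, a 3.12-fold rise (limma adjusted p = 1.99e-09). The fitted dye component of TSA2 was 0.62, against -0.06 from the adapted and acute wild type arrays. TSA1, the main cytosolic peroxiredoxin and the close relative of TSA2, had treated intensities of 5091, 11086, 11675 and 10045, against 11914, 22673, 16226 and 13739 in untreated cells. It fell on each array, by 1.23, 1.03, 0.47 and 0.45 on the log2 scale (mean -0.80 ± 0.10, limma adjusted p = 0.000135). AHP1, a thiol peroxidase that acts on alkyl hydroperoxides, had -1.88, -1.52, -0.15 and 0.09 (mean -0.86 ± 0.16, limma adjusted p = 0.0124), and less the dye effect it was between -1.02 and -0.64 on each array. GPX2, a glutathione peroxidase homologue, had treated intensities of 279, 451, 279 and 283, against 695, 1229, 984 and 1037 in untreated cells. Its ratios of -1.32, -1.45, -1.82 and -1.88 made it the largest fall of the 219, by 1.61 ± 0.11 or 3.06-fold (limma adjusted p = 1.15e-07). The pretreated and untreated intensities of TSA2 and of GPX2 did not overlap. Some were dim: URA3, which the strain lacks, gave 210 to 321 on replicates 1 and 2. Untreated TSA2 there (296 and 287) and treated GPX2 on replicate 1 (279) lay within that range. CCP1, the cytochrome c peroxidase of mitochondria, fell by 0.24 (limma adjusted p = 0.0182), whereas the mitochondrial peroxiredoxin PRX1 (-0.29, limma adjusted p = 0.154) and the catalase genes CTT1 (-0.13) and CTA1 (-0.04) passed no threshold. In all, 1 of 11 peroxiredoxin and peroxidase genes rose and 4 fell, against 1.80% and 1.72% of all ORFs. TSA1, TSA2 and GPX2 were called without any 1 of the arrays, AHP1 was not called without replicate 1, 3 or 4, and CCP1 without any of the 4.

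Both superoxide dismutase genes fell. SOD1, the cytosolic copper and zinc enzyme, had treated intensities of 3148, 6203, 9160 and 7893, against 7918, 14089, 11430 and 9752 in untreated cells, and its ratios were -1.33, -1.18, -0.32 and -0.31 (mean -0.78 ± 0.11, limma adjusted p = 0.00062). SOD2, the mitochondrial manganese enzyme, had -0.65, -0.68, -0.31 and -0.25 (mean -0.47 ± 0.07, limma adjusted p = 0.000502). Both fell further on the arrays with treated RNA in Cy3, and less the dye effect of other arrays SOD1 still stood at -1.31, -1.16, -0.34 and -0.32. Both were called whichever array was left out. CCS1, the copper chaperone of SOD1, passed no threshold (0.06, limma adjusted p = 0.788).

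Glutathione and thioredoxin genes fell or passed no threshold, with 1 exception. GSH1, the first enzyme of glutathione synthesis, had ratios of -0.47, -0.66, -0.86 and -0.89 (mean -0.72 ± 0.06, limma adjusted p = 2.79e-06) and was called without any 1 of the arrays. The glutaredoxin GRX2 fell by 0.29 (limma adjusted p = 0.0351) and YCF1, the vacuolar transporter of glutathione conjugates, by 0.26 (limma adjusted p = 0.00567). YCF1 was nearly the same on each array, at -0.24, -0.21, -0.29 and -0.29. The glutathione transferase ECM4 rose (0.40, limma adjusted p = 0.0395), with -0.14 and -0.15 on replicates 1 and 2 and 0.91 and 0.96 on replicates 3 and 4. Of 14 glutathione genes with values 1 rose and 3 fell, and of 8 thioredoxin genes TRR1, thioredoxin reductase, fell (-0.28, limma adjusted p = 0.0424). The thioredoxins TRX1 (-0.05) and TRX2 (-0.21) passed no threshold. GRX2, ECM4 and TRR1 lost their calls when any 1 array was left out, and YCF1 without replicate 1, 3 or 4.

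Taken by regulator, 7 of 24 textbook Yap1 targets fell (TSA1, AHP1, GPX2, GSH1, GRE2, TRR1 and YCF1) and 1 rose (ECM4), with a list median of -0.12 against -0.01 for all ORFs. The list was chosen with earlier results of these data known. It does not hold the peroxiredoxin TSA2, which rose by 1.64, so the count does not describe every antioxidant gene. GRE2, a reductase of methylglyoxal, had -0.86, -1.28, -0.36 and -0.31 (mean -0.70 ± 0.08, limma adjusted p = 2.38e-05). The transcript of YAP1 itself was at -0.24, -0.42, 0.03 and -0.01 and passed no threshold (limma adjusted p = 0.148), nor did SKN7 (0.11), MSN2 (-0.13) or MSN4 (0.03). TSA1, GSH1, GPX2 and GRE2 were called without any 1 of the arrays. After the dye effect of other arrays was taken off, 8 of the 24 targets were below 0 on 4 of 4 arrays (33.3%, against 14.8% of all ORFs) and 2 were above 0 (8.33%, against 12.2%).

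Fatty acid synthesis genes were among those that rose. OLE1, the delta-9 desaturase that makes unsaturated fatty acids, had treated intensities of 5198, 9928, 7373 and 7279, against 2378, 4473, 4461 and 4631 in untreated cells. Its ratios of 1.13, 1.15, 0.73 and 0.65 gave a mean of 0.91 ± 0.10, a 1.88-fold rise (limma adjusted p = 3.45e-05), and the pretreated and untreated intensities did not overlap. Taking off the dye effect of other arrays widened the distance between orientations for OLE1, to 0.46, 0.48, 1.40 and 1.32. FAS1, the beta subunit of fatty acid synthase, had 1.01, 1.10, 0.03 and 0.03 (mean 0.54 ± 0.08, limma adjusted p = 0.000649). For FAS1 the same step narrowed that distance and left 0.61, 0.70, 0.43 and 0.44. FAS2, the alpha subunit, was high on the other orientation, at 0.17, 0.05, 0.63 and 0.62 (mean 0.37 ± 0.06, limma adjusted p = 0.00121), and stood at 0.27, 0.16, 0.53 and 0.52 after the same step. FAA4, which activates imported fatty acids, rose by 0.47 ± 0.05 (limma adjusted p = 4.44e-05). ACC1, the acetyl-CoA carboxylase that commits carbon to the pathway, rose by 0.25 (limma adjusted p = 0.0105), although its ratios were 1.02, 1.10, -0.56 and -0.55 before and 0.15, 0.23, 0.30 and 0.31 after the dye effect was taken off. ELO1, an elongase of medium-chain acids, rose by 0.38 (limma adjusted p = 0.0227). These 6 of the 20 fatty acid synthesis genes rose and none fell, with a list median of 0.13. OLE1, FAS1, FAS2 and FAA4 were called without any 1 of the arrays, and ACC1 and ELO1 lost their calls when any 1 was left out.

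The study tabulated 27 targets of Mga2 from a literature database, and 8 of them rose and none fell: OLE1, FAS1, FAA4, ELO1, the squalene epoxidase ERG1, the alcohol acetyltransferase ATF1, and IZH1 and IZH2, membrane proteins tied to zinc homeostasis. ATF1 had 0.37, 0.59, 0.48 and 0.54 (mean 0.50 ± 0.09, limma adjusted p = 0.00407) and IZH2 had 0.39, 0.43, 0.53 and 0.49 (mean 0.46 ± 0.07, limma adjusted p = 0.000649). Both were nearly alike in the 2 orientations. IZH1 rose by the same amount (0.50 ± 0.09, limma adjusted p = 0.00395) from unlike arrays, at -0.16, -0.14, 1.18 and 1.10. IZH4, a further member of the family, was above 0 on each array, at 0.64, 0.62, 0.85 and 0.99, but its spread over all groups was wide (mean 0.77 ± 0.38, limma adjusted p = 0.278). Of the 27 targets, 13 were above 0 on 4 of 4 arrays after the dye effect was taken off (48.1%, against 12.2% of all ORFs) and 0 were below. MGA2 itself was at 0.21 (limma adjusted p = 0.11). The 8 calls became 5 without each of the 4 replicates in turn, and OLE1, FAS1, FAA4 and IZH2 were called in each of those fits.

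Sterol and hypoxic genes formed a group that partly overlaps the last. ERG25, the methyl sterol oxidase, had ratios of 0.65, 0.42, 0.61 and 0.56 (mean 0.56 ± 0.09, limma adjusted p = 0.00134), and ERG11, the sterol demethylase that azole drugs target, had 0.23, 0.11, 0.45 and 0.53 (mean 0.33 ± 0.05, limma adjusted p = 0.000887). Both enzymes use oxygen and were called without any 1 of the arrays. ERG28, a scaffold of the sterol demethylation complex (0.34), the sterol esterifying enzyme ARE1 (0.35), ERG1 (0.27) and HMG2, the HMG-CoA reductase isozyme of low oxygen (0.22), also rose, with limma adjusted p-values of 0.00836, 0.0118, 0.0203 and 0.0479. These 6 of 27 ergosterol genes rose and none fell, but the list median was 0.02. Without replicate 1, 2, 3 or 4 the calls among them were 2, 3, 2 and 2.

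Of 15 textbook hypoxic genes, 6 rose (HEM13, OLE1, HEM14, HMG2, PDR11 and SCM4) and none fell, with a list median of 0.21. HEM13, coproporphyrinogen oxidase of heme synthesis and a classical Rox1-repressed gene, had treated intensities of 1077, 1567, 2759 and 2659, against 622, 1045, 1327 and 1322 in untreated cells. Its ratios were 0.79, 0.58, 1.06 and 1.01 (mean 0.86 ± 0.10, limma adjusted p = 3.62e-05). HEM14, the next enzyme of heme synthesis, rose by 0.31 ± 0.05 (limma adjusted p = 0.000844). The transporter gene PDR11 (0.30, limma adjusted p = 0.0122) and SCM4 (0.32, limma adjusted p = 0.03) rose less evenly, and of the 6 only HEM13, OLE1 and HEM14 were called without any 1 of the arrays. The transcript of the repressor ROX1 fell by 0.62 ± 0.11 (limma adjusted p = 0.00567). Its ratios as deposited were -1.57, -1.57, 0.43 and 0.21, and after the dye effect of other arrays was taken off they were -0.68, -0.68, -0.46 and -0.68. The call was lost without replicate 1 or 4. HAP1, the heme-activated regulator, whose gene carries a transposon insertion in this strain background, rose by 0.37 (limma adjusted p = 0.00359) and lost its call without replicate 4. After the dye effect of other arrays was taken off, 7 of the 15 hypoxic genes were above 0 on 4 of 4 arrays (46.7%, against 12.2% of all ORFs) and 0 below. TIP1 (0.97) and FRD1 (0.63), low-oxygen genes that are outside this list and described below, rose as well. Of 7 anaerobic mannoprotein genes with values 0 rose and 1, DAN1, fell, with a list median of -0.02. ANB1, the low-oxygen form of translation factor eIF5A, was at 0.44, 0.13, -0.26 and -0.20 (limma adjusted p = 0.944), and DAN1, an anaerobic cell wall mannoprotein, fell by 0.41 (limma adjusted p = 0.0477), a call lost when any 1 array was left out. CYC1, the main cytochrome c that heme induces, fell by 0.51 ± 0.08, at -0.52, -0.80, -0.31 and -0.40 (limma adjusted p = 0.00187).

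**Figure D3:**
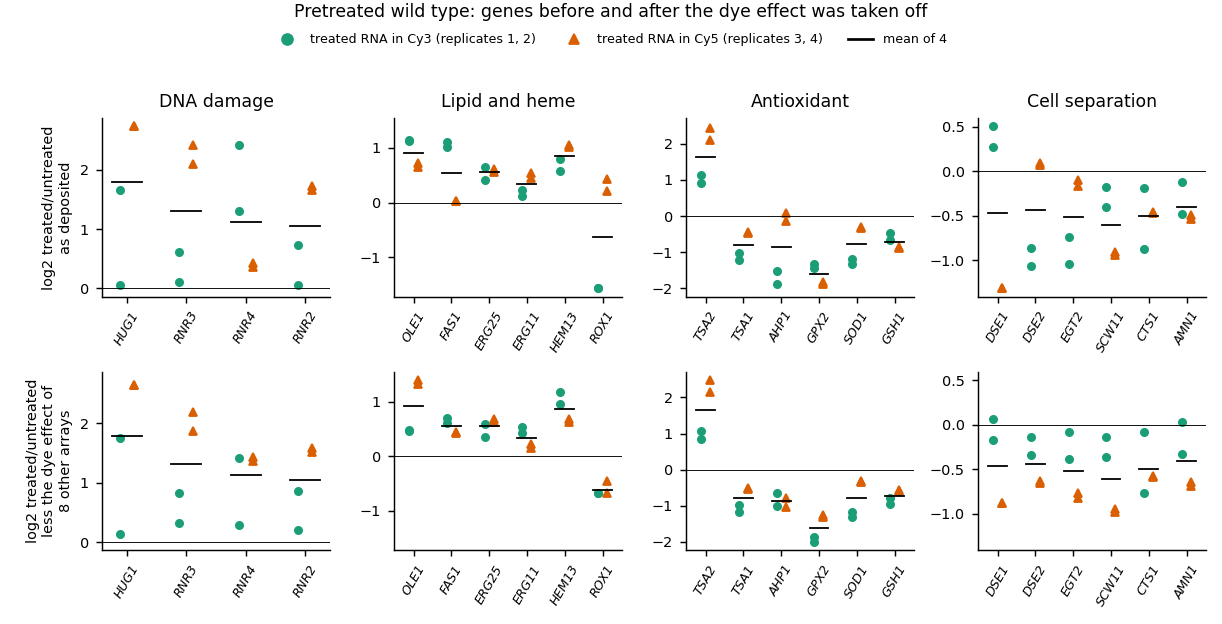
Log2 treated/untreated ratios of 22 genes on each array as deposited (top) and after the dye effect estimated from the 8 adapted and acute wild type arrays was taken off (bottom), with circles for treated RNA in Cy3, triangles for Cy5 and a line for the mean of 4 arrays, which is the same above and below. ROX1, FAS1 and AHP1 draw together, and replicate 2 is the lowest point of the DNA damage genes. HUG1 and SOD1 hardly move because the dye effect from the other arrays is small for them, and their orientations stay apart.

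Of the genes of daughter cell separation all but 1 fell, by the mean of the 4 arrays. After mitosis the daughter cell switches on enzymes and wall proteins that cut the septum. Of 12 such genes on the list 11 fell and none rose, with a median of -0.42 and a range of -0.61 to -0.07. The list was chosen with earlier results of these data known, so this count is a description. SCW11, a glucanase-like wall protein, had treated intensities of 652, 792, 775 and 787, against 862, 897, 1483 and 1478 in untreated cells. Its ratios were -0.40, -0.18, -0.94 and -0.91 (mean -0.61 ± 0.06, limma adjusted p = 1.95e-05). CTS1, the chitinase that opens the septum, had -0.88, -0.19, -0.47 and -0.46 (mean -0.50 ± 0.11, limma adjusted p = 0.0118). EGT2, a wall protein needed for separation, had -1.05, -0.74, -0.10 and -0.17 (mean -0.51 ± 0.08, limma adjusted p = 0.00134). Among the daughter-specific genes, DSE1 fell by 0.47, DSE2 by 0.44, DSE3 by 0.39 and DSE4 by 0.34, with limma adjusted p-values of 0.00359, 0.000338, 0.0185 and 0.0173. ASH1, the daughter-specific repressor of mating type switching, had -0.51, -0.34, -0.43 and -0.42, and AMN1, which shuts down mitotic exit in daughters, had -0.48, -0.12, -0.54 and -0.49. As deposited, 6 of the 12 genes were below 0 on 4 of 4 arrays, and PIR1 (-0.07, limma adjusted p = 0.769) was the member that passed no threshold.

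The size of this fall differed between arrays. After the dye effect was taken off, the list's median was -0.23 on replicate 1, 0.00 on replicate 2 and -0.68 on each of replicates 3 and 4, so that replicate 2 showed no fall of the list, and replicate 2 was above replicate 1 for each of the 12 genes. SCW11 and DSE2 were called without any 1 of the arrays, and of the 11 calls 2, 9, 5 and 4 were made without replicates 1, 2, 3 and 4. With 1 shared dye term the calls were SCW11, DSE2 and EGT2. SWI5, the transcript of a transcription factor of the end of mitosis, was at -0.08 and passed no threshold. SUN4, a wall protein of septation (-0.33, limma adjusted p = 0.00836), and NIS1, a bud neck protein (-0.32, limma adjusted p = 0.00631), fell as well and were picked out after their values were seen.

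Around the start of the cycle 4 of 17 G1 and S phase genes fell and none rose: the G1 cyclins CLN1 (-0.37, limma adjusted p = 0.0122) and PCL1 (-0.31, limma adjusted p = 0.0264), the S phase cyclin CLB5 (-0.25, limma adjusted p = 0.0293) and the replication clamp POL30 (-0.23, limma adjusted p = 0.00788). The list median was -0.14. After the dye effect was taken off, 10 of the 17 were below 0 on 4 of 4 arrays (58.8%, against 14.8% of all ORFs). CLN1 had -0.62, -0.53, -0.19 and -0.15 as deposited, whereas CLN2 passed no threshold (-0.10). Among 12 G2 and M phase genes the cyclin CLB1 rose (0.21, limma adjusted p = 0.0427), at 0.23, 0.24, 0.19 and 0.18. Of 10 histone genes the variant HTZ1 fell (-0.23, limma adjusted p = 0.0413) and the list median was -0.17. Over all ORFs 1.80% rose and 1.72% fell. Calls in these lists were not stable to leaving out an array, since 1 of the 4 G1 and S phase genes was called without replicate 2 and 0 without replicate 1, 3 or 4, and CLB1 and HTZ1 were called in none of those fits.

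General stress genes rose little. Of 27 Msn2 and Msn4 targets and related stress genes 6 rose (1.80% of all ORFs did) and none fell, with a list median of 0.13. HSP12, a membrane-bound stress protein, had 0.90, 0.60, 0.69 and 0.84 (mean 0.76 ± 0.12, limma adjusted p = 0.00181). TMA10, a small stress-induced protein, had 0.43, -0.31, 1.73 and 1.75 (mean 0.90 ± 0.12, limma adjusted p = 0.000338). The membrane protein gene HOR7 (0.52), the small heat shock protein HSP26 (0.46), DDR2 (0.34) and the protease inhibitor TFS1 (0.26) completed the 6. Replicate 2 was below replicate 1 for 19 of the 27, against 49.5% of all ORFs and 66.1% of those that rose. TMA10 was called without any 1 of the arrays, HSP12 lost its call without replicate 1, and of the 6 calls 1, 4, 2 and 2 were made without replicates 1, 2, 3 and 4. Among 27 chaperone genes HSC82, the constitutive Hsp90, fell (-0.42, -0.62, -0.60 and -0.63, mean -0.57 ± 0.06, limma adjusted p = 1.95e-05), and HSP82, the inducible form, was at -0.28 (limma adjusted p = 0.0508). Of 32 proteasome genes RPN3 fell (-0.25, limma adjusted p = 0.0304), where 1.72% of all ORFs fell. As deposited 11 of them were below 0 on 4 of 4 arrays, against 6.50% of all ORFs. After the dye effect was taken off none of the 32 was, with list medians of -0.39 on replicates 1 and 2 and 0.19 on replicates 3 and 4.

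Other leading genes belonged to none of the groups above. YLR108C, whose function is not known, had the second largest fall, with treated intensities of 141, 130, 135 and 115, against 301, 335, 250 and 248 in untreated cells (mean -1.11 ± 0.10, limma adjusted p = 8.91e-06). Its ratios of -1.09, -1.36, -0.89 and -1.11 were alike on the 4 arrays. The signal was dim: on replicates 1 and 2 the treated values of 141 and 130 were below the 210 to 321 of URA3, which the strain lacks. On replicates 3 and 4 the treated values of 135 and 115 were above the 48 to 83 of URA3. TIP1, a cell wall mannoprotein induced by cold and low oxygen, had 0.57, 0.03, 1.63 and 1.63 (mean 0.97 ± 0.11, limma adjusted p = 5.56e-05). FRD1, the soluble fumarate reductase used without oxygen, rose on each array, at 0.57, 0.46, 0.83 and 0.68 (mean 0.63 ± 0.07, limma adjusted p = 4.44e-05). PLB2, a lysophospholipase, had 0.21, 0.16, 0.99 and 1.04 (mean 0.60 ± 0.08, limma adjusted p = 0.000123), and after the dye effect was taken off 0.62, 0.58, 0.57 and 0.62. PSA1, which makes GDP-mannose for glycosylation, fell evenly, at -0.40, -0.46, -0.46 and -0.39 (mean -0.43 ± 0.06, limma adjusted p = 0.000724). These 5 genes were called without any 1 of the arrays. CUP1-1, a copper metallothionein with an identical tandem copy, had -0.02, -0.97, -0.31 and -1.01 (mean -0.58 ± 0.15, limma adjusted p = 0.0379), and it was not called without replicate 2 or 4.

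In metabolism the calls were few, to be read against 1.80% of all ORFs that rose and 1.72% that fell. LYS9 (0.46) and LYS1 (0.35) of lysine synthesis rose, 2 of 9 on that list, as did hexokinase HXK1 (0.66) and the pyruvate kinase CDC19 (0.30), 2 of 19 glycolysis genes. The low-affinity glucose transporter HXT1 rose (0.24) and HXT7, a high-affinity transporter nearly identical to HXT6, fell (-0.27). ALD6, cytosolic aldehyde dehydrogenase and a source of NADPH, fell by 0.31, and it was the 1 call among 17 NADPH and pentose phosphate genes. Of 36 respiratory chain genes 2 fell, CYC1 and the external NADH dehydrogenase NDE1 (-0.22), and ADE17 (-0.36) and GCV3 (-0.40) were the calls among 20 purine and one-carbon genes. None of these was called whichever array was left out, apart from CYC1. No member passed the threshold among 26 iron genes, 16 TCA cycle genes, 56 genes of the small ribosomal subunit or 67 of the mitochondrial ribosome, where limma's test at an unadjusted p under 0.05 gave 5, 5, 11 and 3. Of 81 genes of the large ribosomal subunit 1 rose, RPL14B, and of 42 ribosome biogenesis genes 1 fell, DIP2.

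**Figure D4:**
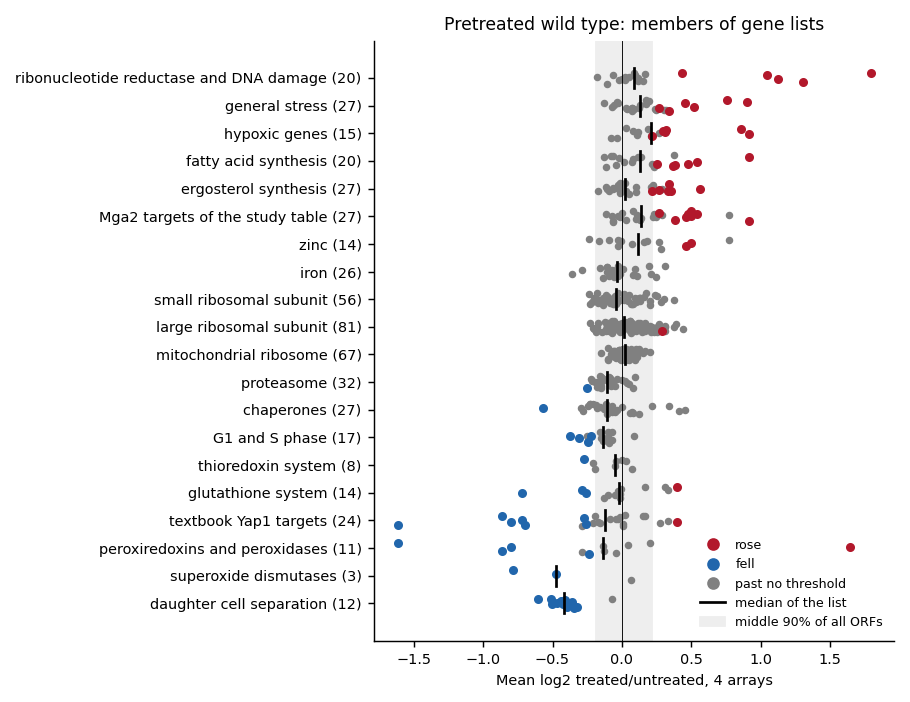
Mean log2 treated/untreated ratio over the 4 pretreated arrays for each member of 20 gene lists (number of members in parentheses), with red and blue for genes that rose or fell, grey for the others, a black line for the list median and a shaded band for the middle 90% of all ORFs. Daughter cell separation lies to the left of the band almost whole, with a median of -0.42, whereas the ribosomal lists centre on 0 and the peroxidase list has its extremes at both ends.

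Set against the other protocols, pretreated cells were the least changed. The acute protocol changed 76.2% of 6225 ORFs and the adapted protocol 27.8% of 6207, in the same fit. The treatment component had an SD over ORFs of 0.139 for pretreatment, 0.254 for the adapted protocol and 0.853 for acute treatment. Of the 112 ORFs that rose on pretreatment, 93 were higher than untreated in adapted cells (12.8% of all ORFs were), 1 was lower and 18 passed no threshold. In acutely treated cells 60 of the 112 were higher (36.5% of all ORFs) and 43 lower (39.7%). Of the 107 that fell, 78 were lower in adapted cells (15% of all ORFs) and 4 higher, while 62 were lower and 36 higher in acute cells.

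The direct contrast with acute treatment differed for 4176 of 6225 ORFs (67.1%), with pretreated cells higher for 2152 (34.6%) and lower for 2024 (32.5%). All 24 Yap1 targets were lower in pretreated than in acutely treated cells, as were all 27 general stress genes, all 32 proteasome genes and all 11 peroxiredoxin and peroxidase genes. GPX2 had the largest gap of any gene named here, at -1.61 in pretreated and 4.23 in acute cells (difference -5.85, limma adjusted p = 2.32e-15). SOD1 was at -0.78 in pretreated and 3.18 in acute cells, and TSA1 at -0.80 and 2.89. Genes of lipid and heme synthesis ran the other way: FAS1 was at 0.54 in pretreated and -1.02 in acute cells (difference 1.57, limma adjusted p = 8.09e-10), HEM13 at 0.86 and -1.81, and ERG11 at 0.33 and -1.63. Among the 27 Mga2 targets 22 were higher in pretreated than in acute cells and none was lower. Of 20 fatty acid genes 13 were higher and 2 lower, and of 27 ergosterol genes 19 were higher and 5 lower. ROX1 fell to -0.62 in pretreated cells, against 1.11 in acute cells (difference -1.73, limma adjusted p = 6.86e-08). Of the 5 DNA damage genes that rose, HUG1 (1.79 in pretreated and 1.37 in acute cells, difference 0.43 ± 0.32, limma adjusted p = 0.243) and RNR3 (1.31 and 1.51, difference -0.20 ± 0.20, limma adjusted p = 0.376) did not pass in this contrast, and RNR2 and RNR4 were lower in pretreated cells.

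The contrast with the adapted protocol differed for 367 of 6207 ORFs (5.91%), with pretreated cells higher for 141 (2.27%) and lower for 226 (3.64%). The adapted cells had also received the high dose. HUG1 was at 1.79 in pretreated and 3.51 in adapted cells (difference -1.71 ± 0.32, limma adjusted p = 0.00299), TSA2 at 1.64 and 3.85 (limma adjusted p = 4.52e-09) and AHP1 at -0.86 and 0.95 (limma adjusted p = 0.00076). Of 24 Yap1 targets 16 were lower in pretreated than in adapted cells and 1 was higher, and of 32 proteasome genes 16 were lower. None of 27 ergosterol genes differed between the protocols. Of 20 fatty acid genes 2 were lower in pretreated cells, OLE1 (0.91 in pretreated and 1.48 in adapted cells, limma adjusted p = 0.0276) and the acyl-CoA binding protein ACB1 (0.14 and 0.64, limma adjusted p = 0.0288), and 1 was higher, IFA38 of fatty acid elongation (0.22 and -0.21, limma adjusted p = 0.0107). The difference for FAS1 was 0.14 ± 0.11 (SE, limma adjusted p = 0.534). Of the 12 daughter separation genes 9 were higher in pretreated than in adapted cells, DSE1 being at -0.47 and -1.36, and 11 were higher than in acute cells. The exception there was CTS1, at -0.50 in pretreated and 0.26 in acute cells (limma adjusted p = 0.000214). Counts in this contrast also depended on the fit, at 28 with 1 shared dye term and 1112 with the 8 arrays of both groups alone. When single arrays were dropped from the contrast of pretreated minus adapted cells, the count was 138, 147 or 168 (pretreated replicate 2, 3 or 4) and 237 or 145 (adapted replicate 1 or 2).

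**Figure D5:**
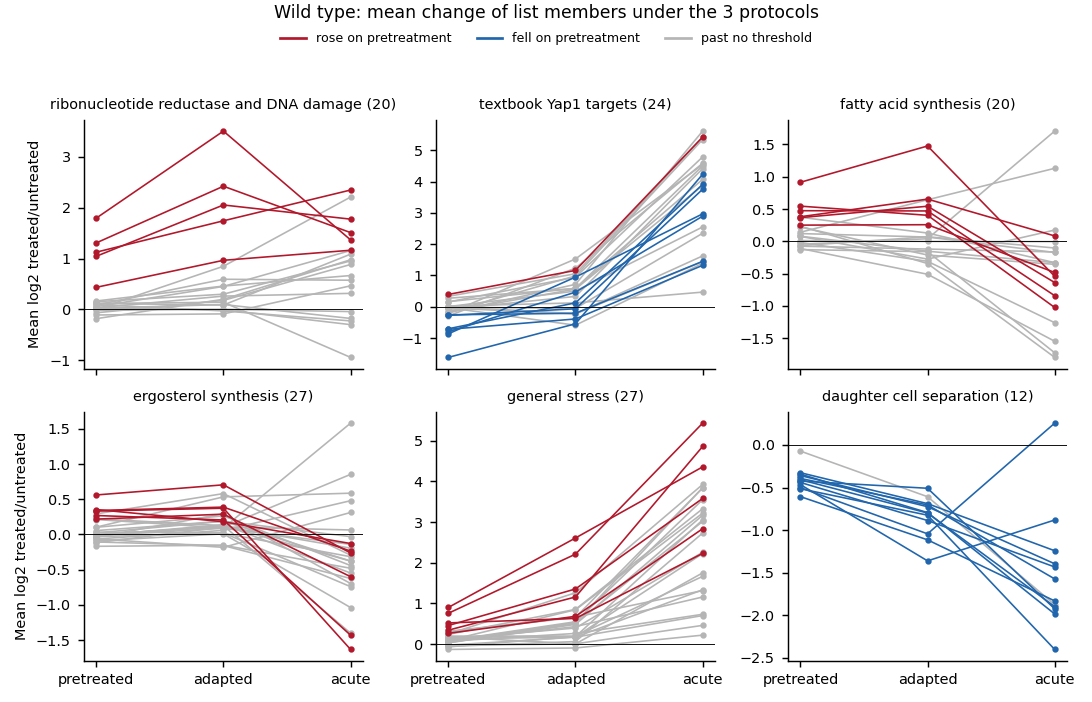
Mean log2 treated/untreated ratio (n = 4 arrays each) of every member of 6 gene lists in pretreated, adapted and acutely treated wild type cells, with lines joining the values of a gene and colours for its call on pretreatment. The called Yap1 targets other than ECM4 lie below 0 in pretreated cells and above 0 in acute cells, whereas the called fatty acid genes other than ELO1 lie above 0 in pretreated and adapted and below 0 in acute cells.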

How the data were processed

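The intensities were deposited as 1 value per ORF and channel of each 2-colour Agilent array. The authors scanned the arrays on GenePix or PerkinElmer scanners, quantified them in GenePix 6.0, and applied background and quantile normalisation. How spots were merged and missing values filtered is not given in the sources used here. A second table by the authors holds values for 10807 spots on what the values show to be a natural log scale of treated over untreated. Its scale and direction were inferred, its spots carry no gene name, and it served as an alternative only. Treated over untreated log2 ratios were computed from the intensities. They were fitted in limma 3.58.1 (R 4.3.3) over 24 arrays with a mean and a gene-specific dye term for each of 6 groups, with Benjamini-Hochberg adjustment over all ORFs tested and a threshold of 0.05. The fit had 12 residual degrees of freedom for the 4373 ORFs with values on all 24 arrays, and fewer, down to 2, for the others. The median standard error of a pretreated mean was 0.0689. The number of arrays limits the precision. Per the labels the 4 replicates are biological, with dyes reversed in 2 of them. On simulated arrays of 6232 ORFs with 50 changed by each of 4 sizes, the pretreatment test called 28, 46, 50 and 50 at log2 changes of 0.25, 0.5, 1 and 2, with 6 false calls of 180. The simulated noise was normal and independent, with 1 spread per ORF for all groups and a dye effect of the fitted form. It therefore cannot show how the calls depend on the way the spread is estimated.

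Genes were named as the 15 largest rises and falls among those past the threshold and of 1 sign on 4 of 4 arrays, members of 46 gene lists past the threshold, well known members of the main lists, the 10 largest dye components, and the 10 largest differences from each other protocol. The members and lists were chosen with earlier results of these data known. Of the ORF names, 5751 of 6251 matched a symbol or locus tag in RefSeq's table. The alternatives varied the dye term, the arrays in the fit, centring, loess, the ORFs tested, the variance prior, the source table, the replicates and a replicate block. Figures were drawn with Python 3.11.15, numpy 2.4.6, pandas 2.3.3 and matplotlib 3.10.9. Values of some list members are not reported here.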

Additional observations from a re-analysis of the deposited data

Results flagged for a closer look

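Of 93 named genes past the threshold, 2 had 1 array far from the other 3 by a gap rule that flags about 1 group in 20 by chance. That rate holds for draws from 1 normal distribution. These ratios still held the dye component, which can hide such an array, so the rate need not hold here. HUG1, whose replicate 2 stood apart, was not flagged. HSC82 was at -0.42 on replicate 1 and between -0.63 and -0.60 on the others, and AMN1 was at -0.12 on replicate 2 and between -0.54 and -0.48 on the others.

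The 10 named genes with the largest differences between pretreated and acutely treated cells were all lower in pretreated cells, each tested in the limma fit. The differences were -5.85 for GPX2, -5.80 for SRX1 (sulfiredoxin, which repairs peroxiredoxins), -5.51 for YNL134C, -5.29 for OSI1, -5.09 for the glutathione transferase GTT2, -5.03 for ECM4, -4.98 for TSA2, -4.87 for PRX1, -4.75 for TRX2 and -4.67 for HSP12. Of these, SRX1 (-0.19), YNL134C (-0.17), GTT2 (0.33), PRX1 and TRX2 passed no threshold on pretreatment itself.

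Against the adapted protocol the 10 largest were TSA2 (-2.21), OSI1 (-2.14), AHP1 (-1.81), TRX2 (-1.74), HUG1 (-1.71), TMA10 (-1.71), PRX1 (-1.52), HSP12 (-1.45) and TSA1 (-1.26), all lower in pretreated cells, and GCV1 of the glycine cleavage complex (1.17), which was higher. GCV1 was at 0.83, 0.73, -0.63 and -0.49 on the pretreated arrays.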

How the results depend on the processing

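The 219 calls on pretreatment became 44 with 1 dye term for all groups, 12 with none, 1682 with the 4 arrays alone, 101 with the 12 wild type arrays, and 42 to 105 without 1 of the replicates. Alternatives chosen after seeing the data gave 56 (1 dye term, 12 wild type arrays) and 53 (table of spots without centring). Centring, loess, other ORF filters, the intensity trend and the table of spots gave 161 to 214, with 115 higher and 81 lower after loess. For pretreated minus acute, 4176 calls became 2473 with no dye term and stayed within 3204 to 6037 otherwise, with 1875 higher and 3436 lower in the spots without centring. Leaving out 1 replicate there gave 3866 to 4327. For pretreated minus adapted, 367 became 28, 11, 1112 and 168 under the same dye and array settings, 143 in the table of spots, 138 to 293 without 1 replicate, and 9 and 65 under the added alternatives. The cause was not tested. Deviations of same-numbered arrays correlated at -0.10 to 0.17 between groups. They were taken after the mean and dye term, so the 2 arrays of an orientation mirror each other. These coefficients therefore cannot decide whether the numbers are a pairing. With a replicate block the calls were 177, 4133 and 309. Of the 269 named genes, 93 were past the threshold, and 61 of these lost their call with 1 dye term for all groups. None of the 93 changed direction in the alternatives that tested it. Only centring, loess and leaving out an array could change it, since the other settings leave the mean of the 4 arrays as it was. The filters tested 223 (values on all 24 arrays) and 233 (without the dimmest 25%) of the 269, and the table of spots, without gene names, tested none. Among named genes past no threshold, up to 22 changed sign in an alternative. Signals near the dim end, at a 5th percentile of 43 to 52 on replicates 3 and 4 and 89 to 103 on replicates 1 and 2, limit the ratios of weakly expressed genes.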

Other observations

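The following 10 genes outside the lists also fell. They were picked out after their values were seen, and how many genes of like function did not fall was not counted. PAT1, which promotes decapping, had 0.49, 0.45, -1.08 and -1.18 as deposited and -0.20, -0.24, -0.39 and -0.49 after the dye effect of other wild type arrays was taken off (mean -0.33, limma adjusted p = 0.00836). XRN1, the main cytoplasmic 5' to 3' exonuclease, fell by 0.24, NOT5 of the deadenylase complex by 0.23, and PAN3 of the other deadenylase by 0.21. SPT20 of the SAGA coactivator fell by 0.47, the remodeller subunits RSC3 and RSC4 by 0.26 and 0.21, the corepressor SIN3 by 0.25, the SWR1 remodeller by 0.23 and HFI1 by 0.21. The calls of the 10 genes were lost without replicate 1, 3 or 4, and most also without replicate 2.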
